A study of Mus musculus with 32 samples.

Results

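The immunity-related GTPases (IRG) are a family of interferon-inducible proteins that defend mouse cells against parasites and bacteria living in vacuoles. The regulators Irgm1, Irgm2 and Igtp (also called Irgm3) sit on the membranes of the cell itself and keep the other members in their inactive, GDP-bound state there. The effectors Iigp1 (Irga6), Tgtp1 and Tgtp2 (together Irgb6) and Ifi47 (Irgd) bind GTP, load onto the vacuole of an invader such as Toxoplasma gondii and help to break it open. In macrophages, interferon-gamma and the type I interferons that follow lipopolysaccharide (LPS) are known to switch these genes on, in part through IRF factors. The members were the 7 genes Irgm1, Irgm2, Igtp, Iigp1, Tgtp1, Tgtp2 and Ifi47, taken by symbol from 25067 genes of 1 count table, each as its transcript with the highest mean count. The rule itself uses no difference between groups, although the list was drawn up with earlier results of these data known. All 7 passed the filter on low values that left 11171 genes for testing.

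RNA-seq was measured in bone marrow-derived macrophages (BMDMs) of C57Bl6/J mice, in 8 groups of 4 libraries and 32 libraries in all. BMDM-WT came from wild-type littermates and BMDM-Nur77-KO from mice that lack Nur77 (Nr4a1), an orphan nuclear receptor, in all tissues. The deletion was made with Cre recombinase under the CMV promoter and a loxP-flanked Nr4a1 locus. According to the methods, mice without the Cre transgene were then bred, while the genotype label of these samples reads cre, so it cannot be told here whether these mice carried Cre. All mice were males of 6 to 12 weeks, and their marrow was cultured for 7 days with 15% L929-conditioned medium. Both genotypes were sampled without LPS (0 h) and after 1, 5 and 18 h with 100 ng/ml LPS. The replicates were wells, the number of animals is not given in the sources used here, and p-values therefore measure the spread between these libraries, which may be technical.

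The libraries held 8742362 to 15780926 counts over the kept transcripts. Nr4a1 itself was lower in BMDM-Nur77-KO, at 5.25 ± 1.19 CPM (counts scaled to a common library total after TMM normalization) against 19.7 ± 4.35 at 0 h and at 191 ± 39.9 against 437 ± 60.1 at 1 h (mean ± SD, n = 4), and remaining counts can come from transcript outside the deleted part. Later it was near the floor in both genotypes. It had 7 to 9 counts a library in BMDM-WT and 1 to 7 in BMDM-Nur77-KO at 5 h. At 18 h it had 2 to 5 and 0 to 5 counts, with overlap. All 8 macrophage markers examined were detected in every group. Their summed level was 13310 to 18920 CPM in BMDM-WT and 13360 to 15910 CPM in BMDM-Nur77-KO at 0 h. At 1 h the sum was 16340 to 18670 and 15010 to 17170 CPM, with overlap. At 5 h it was 16480 to 17890 and 13170 to 16030 CPM, without overlap. At 18 h it was 14000 to 14650 and 10980 to 12620 CPM, again without overlap. Summed markers of T cells reached at most 0.86 CPM, those of NK cells 0.751 CPM, those of B cells 4.70 CPM and those of mast cells 0.154 CPM in any library, and those of neutrophils 45.2 CPM. The library of BMDM-Nur77-KO at 5 h, replicate 1, stood apart across all genes, with 139 of 11171 genes over 2 times the highest of the other 3 libraries of its group and 598 under 0.5 times the lowest. For BMDM-Nur77-KO at 18 h, replicate 4, these numbers were 47 and 222.

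Of the members, 6 lie on mouse chromosome 11 in 2 clusters (GRCm38, RefSeq genes). Irgm1 occupies chr11:48865245-48871420, Tgtp1 chr11:48985329-48992246 and Tgtp2 chr11:49057196-49064212, all on the minus strand, and Ifi47 chr11:49076587-49096987 on the plus strand. Igtp at chr11:58199556-58207592 and Irgm2 at chr11:58214977-58222783 are plus-strand neighbours. The split into regulators and effectors can be read in the coding exon at the loop that binds the nucleotide, where the regulators have a methionine codon and the effectors a lysine codon. The coding stretches are given 5′ to 3′ because they define the groups used throughout, with this codon in capitals.
Irgm1 (chr11:48866761-48866784, minus strand), Irgm2 (chr11:58219695-58219718, plus strand) and Igtp (chr11:58206275-58206298, plus strand): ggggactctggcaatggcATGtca
Tgtp1 (chr11:48987667-48987690, minus strand) and Tgtp2 (chr11:49059534-49059557, minus strand): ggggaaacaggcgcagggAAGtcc
Ifi47 (chr11:49095648-49095671, plus strand): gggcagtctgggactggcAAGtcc
The 3 regulators were identical over these 24 bases, and so were Tgtp1 and Tgtp2. Iigp1 also codes for lysine there.

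Over the whole coding sequence, Tgtp1 and Tgtp2 were 99.7% identical, whereas all other pairs of members were 51.1% to 67.6% identical. Of all 150-base stretches of the Tgtp1 transcript, the read length used, 71.3% also occur in Tgtp2, so the authors' filter on mapping quality could drop reads of this pair or split them between the copies. Values of either gene alone are therefore uncertain, and their sum is given where it changes a call. No such stretch was shared by any other pair. Exons of other genes on the same strand cover 8.01% of the Igtp transcript (Irgm2), 7.90% of Tgtp1 (Gm12185) and 6.26% of Ifi47 (Olfr56).

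RefSeq promoter sequences (GRCm38.p6) from 250 bases before to 50 bases after the start were at hand for the 6 members on chromosome 11. They were searched on both strands for the interferon-stimulated response element, ISRE (GAAA, any 2 bases, GAAA), bound by IRF factors, and for the gamma-activated site, GAS (TTCNNNGAA), known from genes induced by interferon-gamma. An ISRE was found in 5 of 6 member promoters and in 3.44% of 32851 promoters, and a GAS in 4 of 6 and in 8.30% of all. In Irgm2, Igtp, Tgtp1 and Tgtp2 the GAS directly preceded the ISRE on the same strand, an arrangement with a gap of at most 4 bases that only 10 of the 32851 promoters held (0.0304%) and that was chosen after these sequences were seen. The stretches around these motifs are shown 5′ to 3′ on the strand of the gene, with GAS and ISRE in capitals.
Irgm2 (chr11:58214887-58214936, plus strand): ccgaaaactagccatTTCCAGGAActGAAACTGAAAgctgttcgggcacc
Igtp (chr11:58199496-58199545, plus strand): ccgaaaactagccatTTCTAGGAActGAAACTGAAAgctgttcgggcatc
Tgtp1 (chr11:48992300-48992349, minus strand): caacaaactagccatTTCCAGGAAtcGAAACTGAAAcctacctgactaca
Tgtp2 (chr11:49064259-49064308, minus strand): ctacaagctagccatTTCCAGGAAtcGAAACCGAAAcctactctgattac
Irgm1 (chr11:48871428-48871457, minus strand): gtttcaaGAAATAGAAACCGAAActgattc
In Irgm1, 2 overlapping ISREs stand at bases -30 to -15 from the start, with no GAS in the window, and the stretch shown lies within an exon of another annotated Irgm1 transcript. The Igtp and Irgm2 promoters share a run of 61 identical bases and those of Tgtp1 and Tgtp2 a run of 27. Ifi47 held neither motif at its first start, and the starts that GENCODE places 10113 to 11677 bases further on were not analysed here. The AP-1 motif (TGANTCA) was in 1 of 6 member promoters, that of Irgm1, and in 7.81% of all. The NBRE to which Nur77 binds as a monomer (AAAGGTCA) was in 0 of 6 and in 1.51% of all, and the kB motif in 0 of 6 and in 8.46%. These matches describe the letters of the windows only.

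The remaining member, Iigp1, lies apart from these clusters at chr18:60373616-60392634 on the plus strand (GRCm38), and no sequence of it is shown.

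In unstimulated BMDM-WT, levels compared per length (RPKM, counts scaled to transcript length and to the same TMM-normalized library total) put Irgm1 first at 44.2 ± 6.6 RPKM (SD, n = 4) and Ifi47 second at 21.7 ± 3.83. Irgm2 at 11.1 ± 1.93 and Igtp at 10.9 ± 2.07 RPKM did not differ beyond their spread, nor did Iigp1 at 5.76 ± 1.28 and Tgtp2 at 4.64 ± 0.962. Tgtp1 was barely detected, at 0.223 ± 0.0458 RPKM and 6 to 14 counts a library. In BMDM-Nur77-KO at 0 h the order was the same except that Tgtp2 at 1.61 ± 0.355 and Iigp1 at 1.21 ± 0.209 RPKM, whose ranges overlapped, changed places. The 3 regulators thus made up most of the pool at rest. Irgm1 alone took 44.9% ± 1.62 of the summed RPKM of the 7 genes in BMDM-WT and 50.9% ± 1.08 in BMDM-Nur77-KO.

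**Figure D1:**
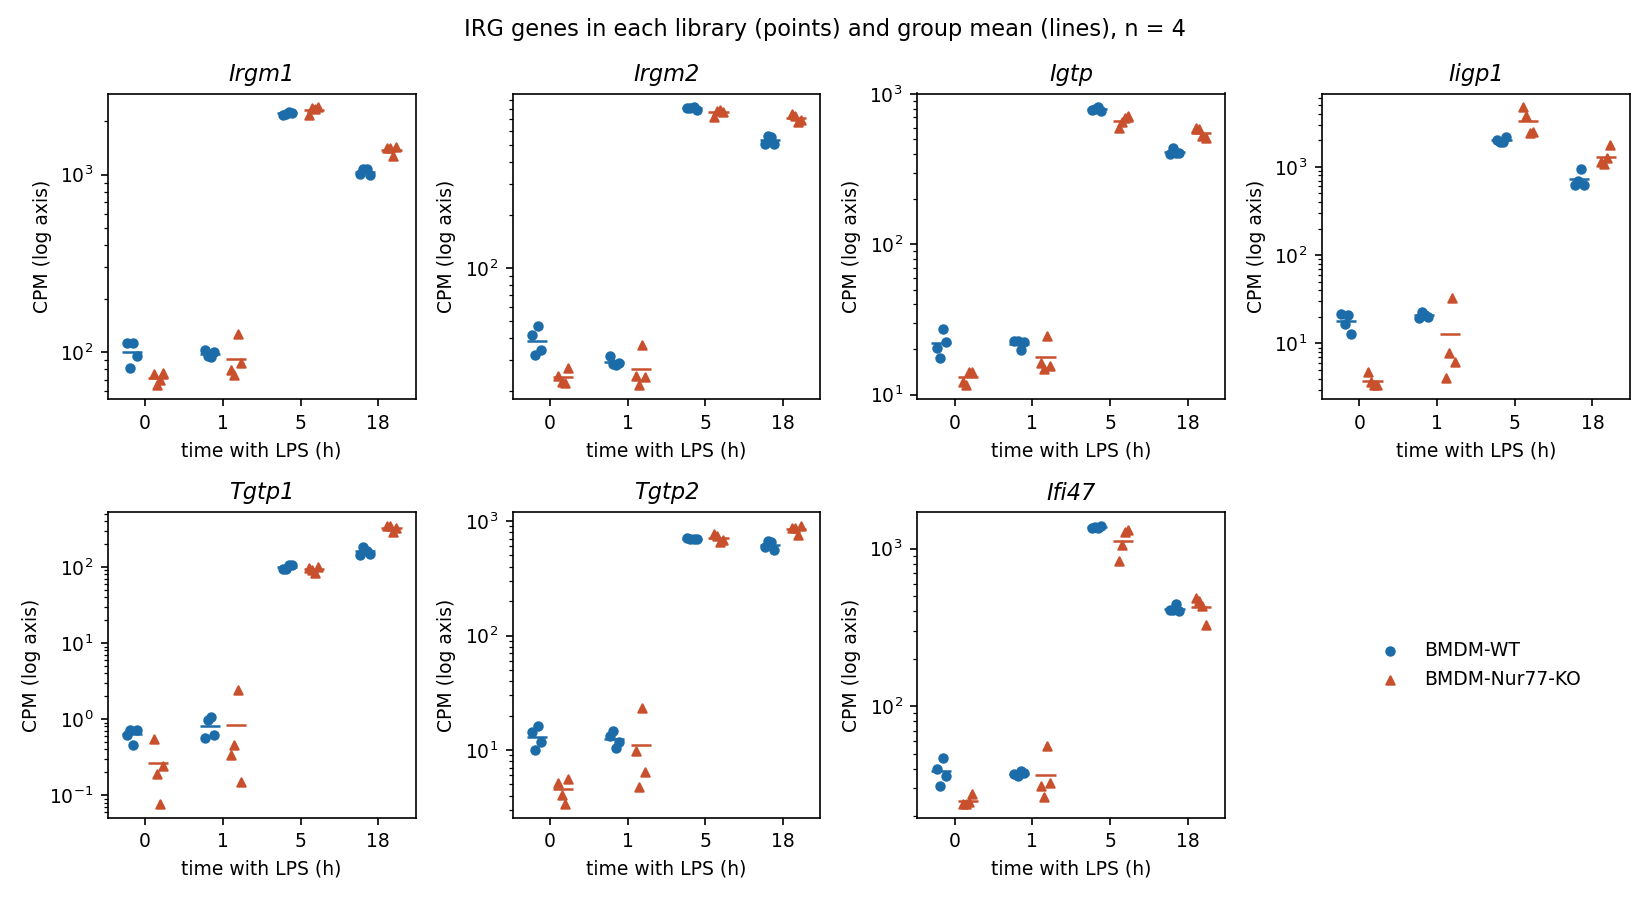
CPM of each IRG gene (log axis) at 0, 1, 5 and 18 h of LPS in BMDM-WT (circles) and BMDM-Nur77-KO (triangles), with 1 point per library and a line at the mean of the 4. Every gene rose by 5 h in both genotypes, from at most 112 CPM to between 82.5 and 4721 CPM, and 1 BMDM-Nur77-KO library at 1 h lies above the other 3 for all 7 genes.

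Before LPS, IRG transcripts stood lower in the knockout than in BMDM-WT, with the largest log2 fold change for the effector Iigp1 and the smallest for the regulator Irgm1. At 0 h, 6 of 7 members passed the test as lower and 0 as higher, where 6.36% of all tested genes were called lower. The quasi-likelihood test of edgeR was used throughout, with p-values adjusted by Benjamini-Hochberg (BH) over the 11171 genes. The median log2 fold change of the 7 was -0.75, beside -0.03 over all genes. Iigp1 measured 21.4, 16.7, 20.9 and 12.9 CPM in the 4 BMDM-WT libraries and 4.74, 3.67, 3.38 and 3.35 CPM in the 4 BMDM-Nur77-KO libraries. Even the lowest wild-type library was thus well above the highest knockout library. The log2 fold change was -2.25 ± 0.41 (SE, n = 4; edgeR quasi-likelihood, BH-adjusted p = 3.0e-04), a 4.76-fold lower level.

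Tgtp2 came next among the effectors, with 14.4, 10.0, 16.1 and 11.6 CPM in BMDM-WT and 5.10, 4.05, 3.38 and 5.58 CPM in BMDM-Nur77-KO. Here too the groups did not overlap, and the log2 fold change was -1.52 ± 0.28 (edgeR quasi-likelihood, BH-adjusted p = 3.9e-04). Its twin Tgtp1 had 6 to 14 counts in BMDM-WT and 1 to 6 in BMDM-Nur77-KO, with a log2 fold change of -1.33 ± 0.60 that missed the threshold (edgeR quasi-likelihood, BH-adjusted p = 0.16). With the reads of both genes summed, the value was -1.51 (edgeR quasi-likelihood, BH-adjusted p = 5.5e-04). Ifi47 was lower by a smaller step, at 39.9, 31.1, 47.1 and 35.97 CPM against 24.1, 23.9, 24.6 and 27.8 CPM, with a log2 fold change of -0.62 ± 0.17 (edgeR quasi-likelihood, BH-adjusted p = 0.012). This call was lost without BMDM-WT 0 h replicate 3 (-0.50, edgeR quasi-likelihood, BH-adjusted p = 0.068), which had the highest Ifi47 level of its group.

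The regulators were lower in every knockout library than in any wild-type library. Irgm1, whose loss in mice is known to leave them unable to control intracellular bacteria, measured 112, 81.3, 112 and 94.4 CPM in BMDM-WT and 75.1, 64.8, 69.2 and 75.9 CPM in BMDM-Nur77-KO. Its log2 fold change was -0.49 ± 0.11, that of Irgm2 -0.68 ± 0.12 and that of Igtp -0.75 ± 0.13, with BH-adjusted p of 0.0031, 1.2e-04 and 1.1e-04 by edgeR's quasi-likelihood test. The groups of 6 of the 7 members did not overlap at 0 h, all but Tgtp1, and the share of all tested genes without such overlap was not taken. The summed level of 3 T cell markers, cells that can make interferon-gamma, was 0.260 to 0.606 CPM in BMDM-WT and 0 to 0.273 CPM in BMDM-Nur77-KO at this time, with all 3 at or under 3 counts in every knockout library. That of 4 B cell markers was 2.83 to 4.70 CPM in BMDM-WT and 1.38 to 2.72 CPM in BMDM-Nur77-KO, without overlap. NK cell markers overlapped, at 0.0520 to 0.229 against 0 to 0.127 CPM. Other lists had a higher median in the knockout, with overlap. These were neutrophil (15.4 to 26.8 against 23.1 to 30.0 CPM), fibroblast (0 to 0.363 against 0.253 to 0.478 CPM) and dendritic cell markers (0.459 to 0.682 against 0.638 to 1.23 CPM). Neutrophil markers did not overlap at 1 h (24.5 to 32.9 against 36.2 to 43.8 CPM). At 18 h, where 4 of 7 members were called higher in the knockout, the T cell markers were again at 0.274 to 0.860 against 0 to 0.177 CPM. The B cell markers were at 1.65 to 3.83 against 1.52 to 2.28 CPM, with overlap. The part of these cells in the results was not tested. Fewer cells of a type and less RNA per cell cannot be told apart in these bulk samples.

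**Figure D2:**
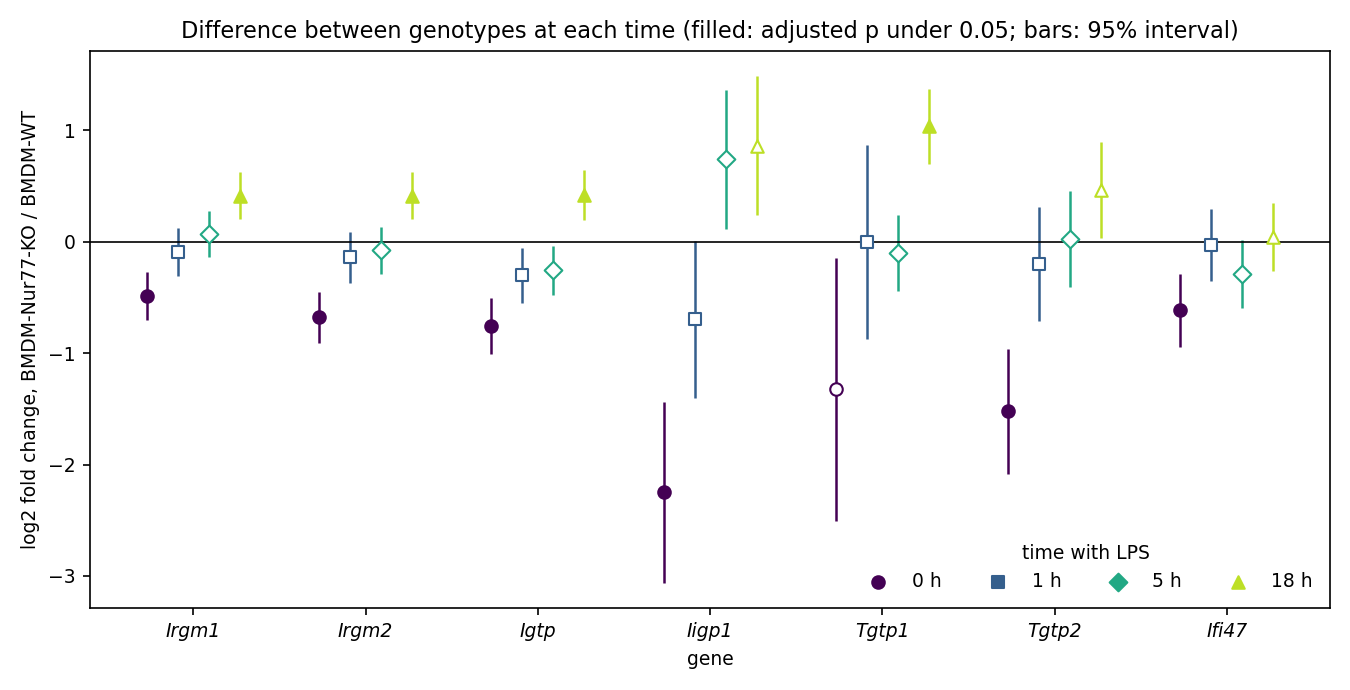
Log2 fold change of BMDM-Nur77-KO against BMDM-WT for each IRG gene at 0, 1, 5 and 18 h of LPS, with bars for the 95% interval and filled symbols for a BH-adjusted p under 0.05 (edgeR). All 7 values are below 0 at 0 h, from -2.25 to -0.49, and all 7 are above 0 at 18 h, from 0.04 to 1.04, where that of Ifi47 has an interval that spans 0.

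Upstream of the family, transcripts of Irf1, Irf7 and Irf9 showed the same direction at 0 h. Of 16 genes of interferon signalling, 4 passed the test as lower in BMDM-Nur77-KO, where 6.36% of all genes were called lower, and 0 as higher. The median log2 fold change of the 16 was -0.19 beside -0.03 over all genes. The 4 were Irf7 (-0.91 ± 0.14), Irf1 (-0.81 ± 0.09), Stat2 (-0.44 ± 0.08) and Irf9 (-0.31 ± 0.07), all genes of transcription factors of the interferon response. Irf1 measured 96.3 ± 13.0 CPM in BMDM-WT and 55.0 ± 2.90 CPM in BMDM-Nur77-KO. The ligand genes were at the floor, with Ifnb1 at 0 counts in all 8 libraries and Ifng at most 0.0764 CPM. Irf8 had a log2 fold change of -0.13 ± 0.07 (edgeR quasi-likelihood, BH-adjusted p = 0.27).

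Among the relatives of the members, 1 of 9 tested genes of the wider IRG family was lower at 0 h, Gm12250 (Irgb10) at -0.67 ± 0.13, and 0 were higher. Of all genes, 6.36% were called lower at this time. Of the 11 guanylate-binding proteins (GBPs), larger GTPases that act on the same vacuoles, 3 were lower, Gbp5 at -1.48 ± 0.23, Gbp2 at -1.48 ± 0.27 and Gbp9 at -0.95 ± 0.22. Of the 13 genes for vacuole loading and ubiquitin, by which IRG proteins are steered and vacuoles are tagged, 1 was called, as higher (Atg12, 0.25 ± 0.07). The share of all genes called higher at 0 h is not given here.

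After 1 h of LPS few changes in the family passed the test in BMDM-WT. Of 7 members, 1 passed the test as lower, Irgm2 at -0.39 ± 0.11 (edgeR quasi-likelihood, BH-adjusted p = 0.013), and 0 as higher, where 10.2% of all genes were called lower and 10.1% higher. The Irgm2 call was lost without BMDM-WT 0 h replicate 3 (-0.29, edgeR quasi-likelihood, BH-adjusted p = 0.090). By then Ifnb1 had gone from 0 counts to 20.4 ± 1.72 CPM in BMDM-WT and to 23.2 ± 3.91 CPM in BMDM-Nur77-KO. Irf1, an immediate LPS target, stood at 914 ± 64.5 and 957 ± 128 CPM.

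In BMDM-Nur77-KO, 5 of 7 members passed the test as higher at 1 h than at 0 h, where 6.91% of all genes were called higher, but this rested largely on 1 library. Iigp1 measured 4.11, 7.90, 33.2 and 6.16 CPM in the 4 libraries, Tgtp2 9.76, 4.74, 23.1 and 6.38 CPM, and Irgm1 79.7, 74.5, 126 and 87.3 CPM. Replicate 3 was the highest of its group for all 7 members, at 1.57 times the mean of the other 3 for Irgm1, 5.48 times for Iigp1 and 7.62 times for Tgtp1. Across all genes only 22 of 11171 were over 2 times the highest of the other 3 libraries in this replicate, and they included Iigp1, Tgtp1, Tgtp2 and 7 GBPs. Without it, 1 member, Tgtp2 (0.62, edgeR quasi-likelihood, BH-adjusted p = 0.035), was called higher at 1 h, where 6.19% of all genes were. Over all 4 libraries, Tgtp1 alone was not called (edgeR quasi-likelihood, BH-adjusted p = 0.058). The reads of Tgtp1 and Tgtp2 summed gave 1.31 (edgeR quasi-likelihood, BH-adjusted p = 0.0017), with replicate 3 included.

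The same library showed Gbp2 at 211 CPM against 52.3 to 85.8 CPM in the other 3. Levels of 4 further interferon genes in it lay close to or within the range of its group, with Irf1 at 1029 against 836 to 1100 CPM, Ifnb1 at 20.3 against 19.4 to 26.7 CPM, Irf7 at 18.8 against 15.6 to 21.9 CPM and Irf9 at 38.8 against 33.2 to 37.4 CPM. It had no counts of Ifng, as all 4 libraries of the group.

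**Figure D3:**
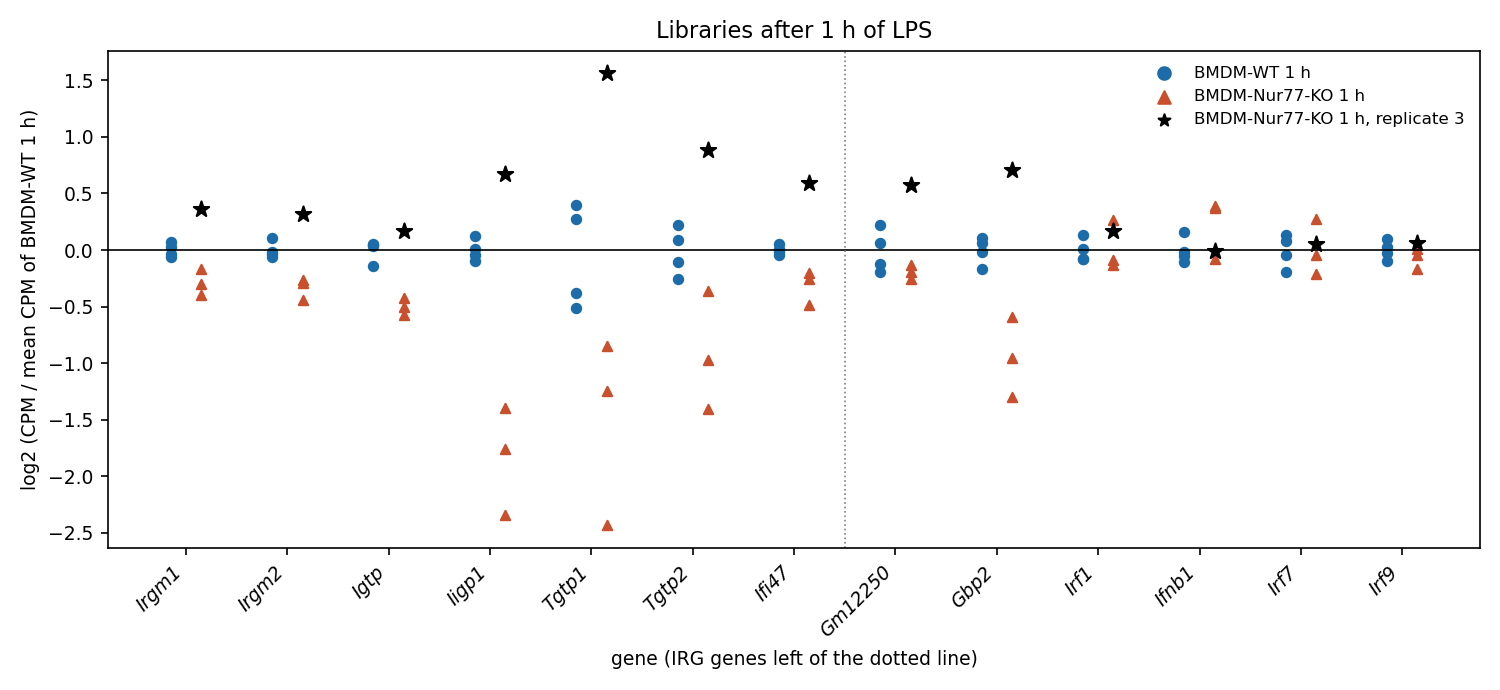
Level of the 7 IRG genes and 6 other interferon-related genes in each library after 1 h of LPS, as log2 of the CPM over the BMDM-WT mean (circles BMDM-WT, triangles BMDM-Nur77-KO, star BMDM-Nur77-KO replicate 3). The star lies above all other libraries for the 7 IRG genes, Gm12250 and Gbp2, while for Irf1, Ifnb1 and Irf7 it lies among them.

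Between genotypes at 1 h, 0 of 7 members passed edgeR's quasi-likelihood test in either direction, with 1 at an unadjusted p under 0.05 (Igtp) and likewise 0 by DESeq2, where 3.06% of all genes were called lower and 3.48% higher. This too turned on BMDM-Nur77-KO replicate 3. Without it 5 of 7 were called lower, where 2.40% of all genes were. These were Iigp1 at -1.77 ± 0.25, Tgtp1 at -1.38 ± 0.37, Tgtp2 at -0.86 ± 0.18, Igtp at -0.50 ± 0.11 and Irgm2 at -0.34 ± 0.10 (edgeR quasi-likelihood, BH-adjusted p from 2.0e-05 to 0.040). The difference between genotypes in the change from 0 h to 1 h was called for 0 of 7 members by edgeR and 0 by DESeq2 (6 of 7 at an unadjusted p under 0.05 by edgeR), where 0.0448% of all genes were called higher.

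By 5 h the whole family had risen in both genotypes. All 7 members were called higher than at 0 h in BMDM-WT, where 30.0% of all genes were, and all 7 in BMDM-Nur77-KO, where 32.1% were. In BMDM-WT the log2 fold changes ran from 4.38 ± 0.13 for Irgm2 to 7.26 ± 0.28 for Tgtp1. The regulators Irgm2 and Irgm1 (4.47) had the smallest values, Ifi47 (5.16) and Igtp (5.18) came next, and Tgtp2 (5.75), Iigp1 (6.80) and Tgtp1 had the highest. In BMDM-Nur77-KO they ran from 4.98 ± 0.13 for Irgm2 to 9.79 ± 0.48 for Iigp1. These comparisons share no libraries between genotypes, but each genotype's 0 h libraries serve as the base of all its later times.

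Levels at 5 h differed far less between genotypes than at 0 h. Irgm1 measured 2156, 2199, 2255 and 2236 CPM in BMDM-WT and 2166, 2368, 2354 and 2389 CPM in BMDM-Nur77-KO, and the groups overlapped. Tgtp2 measured 692 to 707 CPM and 659 to 765 CPM, also with overlap. At 5 h, 0 of 7 members passed edgeR's quasi-likelihood test in either direction, with 2 at an unadjusted p under 0.05 (Iigp1 higher, Igtp lower) and 0 called by DESeq2, where 10.7% of all genes were called lower and 13.7% higher. The intervals left room for changes of some size, from -0.14 to 0.28 for the log2 fold change of Irgm1 and from -0.41 to 0.46 for that of Tgtp2. These intervals use 1 spread per gene, estimated over all 32 libraries, and not that of the 5 h libraries alone. For Tgtp2 the SD was 0.92% of the mean in BMDM-WT and 6.8% in BMDM-Nur77-KO at 5 h, but 75.8% in BMDM-Nur77-KO at 1 h. Summed macrophage markers were lower in BMDM-Nur77-KO at 5 h, as given above, and their part in these levels was not tested.

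Iigp1 was the member with the widest spread at 5 h. It measured 2021, 1898, 1892 and 2210 CPM in BMDM-WT and 4721, 3736, 2453 and 2462 CPM in BMDM-Nur77-KO, so that all knockout libraries were above all wild-type libraries but were themselves far apart. Its log2 fold change of 0.74 ± 0.32 missed the threshold (edgeR quasi-likelihood, BH-adjusted p = 0.085), and passed it when knockout replicate 3 (0.86, BH-adjusted p = 0.047) or replicate 4 (0.86, BH-adjusted p = 0.045) was left out of the edgeR fit. It was 0.52 (BH-adjusted p = 0.29) without replicate 1 and 0.68 (BH-adjusted p = 0.16) without replicate 2 in the same edgeR fit. In the same knockout libraries Ifi47 ran the other way, at 830, 1059, 1282 and 1308 CPM, below the 1354 to 1395 CPM of BMDM-WT (-0.29 ± 0.15, edgeR quasi-likelihood, BH-adjusted p = 0.16). Knockout replicate 1, which stood apart across all genes, had the highest Iigp1 and the lowest Ifi47 level of the group. Irgm2 (718 to 780 against 787 to 812 CPM) and Igtp (594 to 715 against 777 to 817 CPM) also lay below BMDM-WT without overlap and were not called.

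The knockout started lower and no member was called different at 5 h, and for some members the rise itself differed between genotypes. For Iigp1 the estimate at 5 h was also above 0 (0.74 ± 0.32, not called). These differences share the 0 h libraries with the comparison at 0 h. The difference in the change from 0 h to 5 h was called higher in BMDM-Nur77-KO for 4 of 7 members, where 1.74% of all genes were. It was largest for Iigp1 at 2.99 ± 0.52 on the log2 scale (edgeR quasi-likelihood, BH-adjusted p = 8.3e-04), followed by Tgtp2 at 1.55 ± 0.36 (BH-adjusted p = 0.012), and both kept the call without any single library. Those of Irgm2 (0.60 ± 0.16) and Irgm1 (0.56 ± 0.15) were close to the threshold, with BH-adjusted p of 0.028 and 0.040 by edgeR, and lost the call in 7 and 11 of 16 fits that left out 1 library. With the reads of Tgtp1 and Tgtp2 summed, the pair gave 1.52 (edgeR quasi-likelihood, BH-adjusted p = 0.016).

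**Figure D4:**
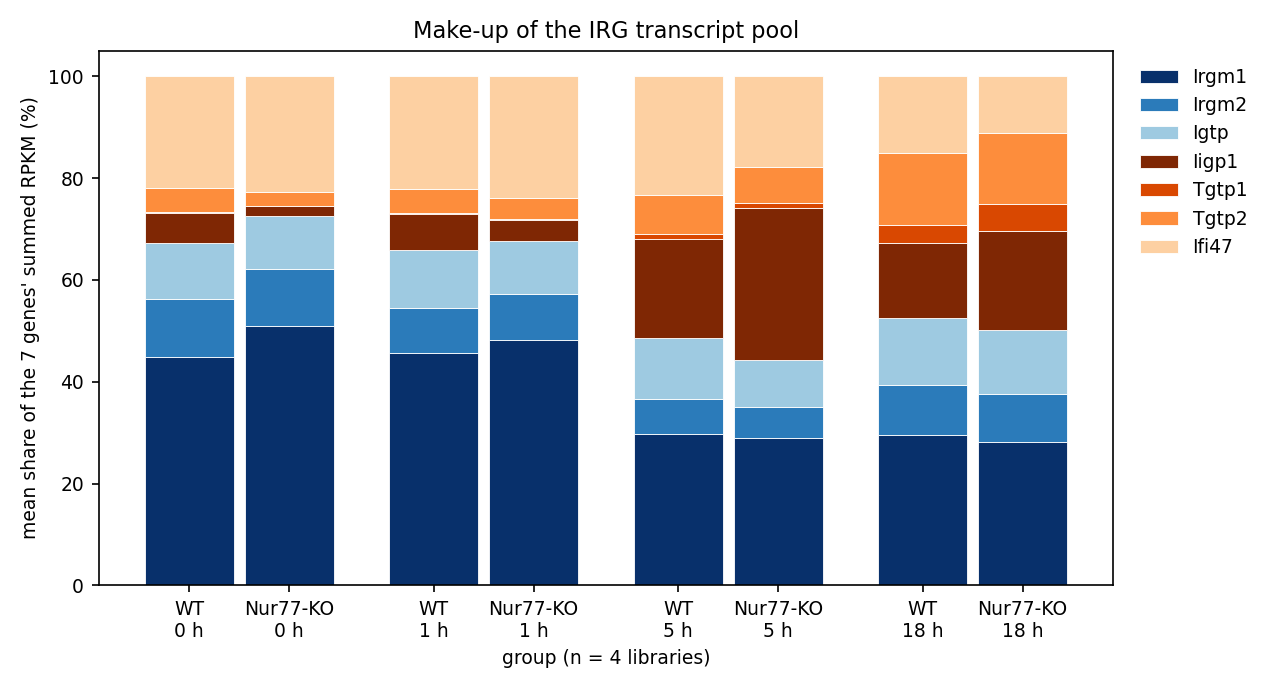
Mean share of each gene in the summed RPKM of the 7 IRG genes in the 8 groups (n = 4 libraries each), with regulators in blue and effectors in orange and brown. The share of Irgm1 was 44.9% in BMDM-WT at 0 h and 29.7% at 5 h, while that of Iigp1 was 5.84% and 19.4%, and in BMDM-Nur77-KO the share of Iigp1 was 2.0% and 29.8%.

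The shares of the members in their summed level differed between 0 h and 5 h, as a description with no test. In BMDM-WT the shares of the regulators Irgm1 and Irgm2 were lower at 5 h (29.7% from 44.9%, and 7.02% from 11.3%), whereas Igtp went from 11.1% over 11.9% to 13.2% by 18 h. Among the effectors, Iigp1 and Tgtp2 had larger shares at 5 h than at 0 h, but Ifi47 had 22.0% before LPS, 23.4% after 5 h and 15.1% after 18 h. The summed level of the 7 genes was 98.6 ± 15.6 RPKM in BMDM-WT and 62.0 ± 4.35 RPKM in BMDM-Nur77-KO at 0 h, and 3302 ± 55.3 and 3563 ± 178 RPKM at 5 h. In BMDM-WT at 5 h Irgm1 still led at 979 ± 19.2 RPKM, ahead of Ifi47 at 773 ± 10.4 and Iigp1 at 643 ± 47.7 RPKM, and no neighbours in that order overlapped. In BMDM-Nur77-KO Iigp1 at 1071 ± 352 RPKM stood level with Irgm1 at 1027 ± 45.6, the ranges overlapping, followed by Ifi47 at 632 ± 126 RPKM. Tgtp1 remained the lowest in both, at 35.3 ± 2.63 and 32.9 ± 2.65 RPKM.

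After 18 h all 7 members were still above 0 h in both genotypes, where 32.4% of all genes were called higher in BMDM-WT and 33.9% in BMDM-Nur77-KO. Between 5 h and 18 h, however, most of them fell in BMDM-WT. There 5 were called lower, where 33.4% of all genes were, and 1 was called higher, where 36.1% were. Ifi47 fell by 1.72 ± 0.16 on the log2 scale to 30.3% of its 5 h level, Iigp1 fell by 1.48 ± 0.32, Irgm1 fell by 1.09 ± 0.11, Igtp fell by 0.94 ± 0.11 and Irgm2 fell by 0.59 ± 0.11. By contrast Tgtp1 went from 93.2, 93.3, 106 and 106 CPM to 145, 184, 164 and 147 CPM, higher by 0.68 ± 0.17 (edgeR quasi-likelihood, BH-adjusted p = 9.3e-04). Tgtp2 measured 692 to 707 CPM at 5 h and 559 to 667 CPM at 18 h, and its log2 fold change of -0.18 ± 0.22 did not pass the test (edgeR quasi-likelihood, BH-adjusted p = 0.49). It passed in an edgeR fit of the compared libraries alone (-0.17, BH-adjusted p = 0.027). With both twins summed the change was -0.036 (edgeR quasi-likelihood, BH-adjusted p = 0.90), a sum in which Tgtp2 has the larger part. How reads were assigned between the copies was not tested.

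In BMDM-Nur77-KO, 4 members were called lower at 18 h than at 5 h, where 34.2% of all genes were, and 1 higher, where 35.2% were. Ifi47 fell by 1.39 ± 0.16, Iigp1 fell by 1.35 ± 0.32 and Irgm1 fell by 0.75 ± 0.11 on the log2 scale. Igtp at -0.26 ± 0.11 passed narrowly (edgeR quasi-likelihood, BH-adjusted p = 0.041) and lost the call in 5 of 8 fits without 1 library. Irgm2, called lower in BMDM-WT, had a log2 fold change of -0.11 ± 0.11 (BH-adjusted p = 0.39) by edgeR's quasi-likelihood test. Tgtp1 went from 96.7, 92.2, 82.5 and 99.6 CPM to 345, 346, 292 and 329 CPM, higher by 1.82 ± 0.18 on the log2 scale and 3.54-fold. Tgtp2 measured 659 to 765 CPM at 5 h and 758 to 907 CPM at 18 h, at 0.26 ± 0.22 (edgeR quasi-likelihood, BH-adjusted p = 0.30). It passed in an edgeR fit of the compared libraries alone (0.27, BH-adjusted p = 0.044). Both twins summed gave 0.55 (edgeR quasi-likelihood, BH-adjusted p = 0.032).

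**Figure D5:**
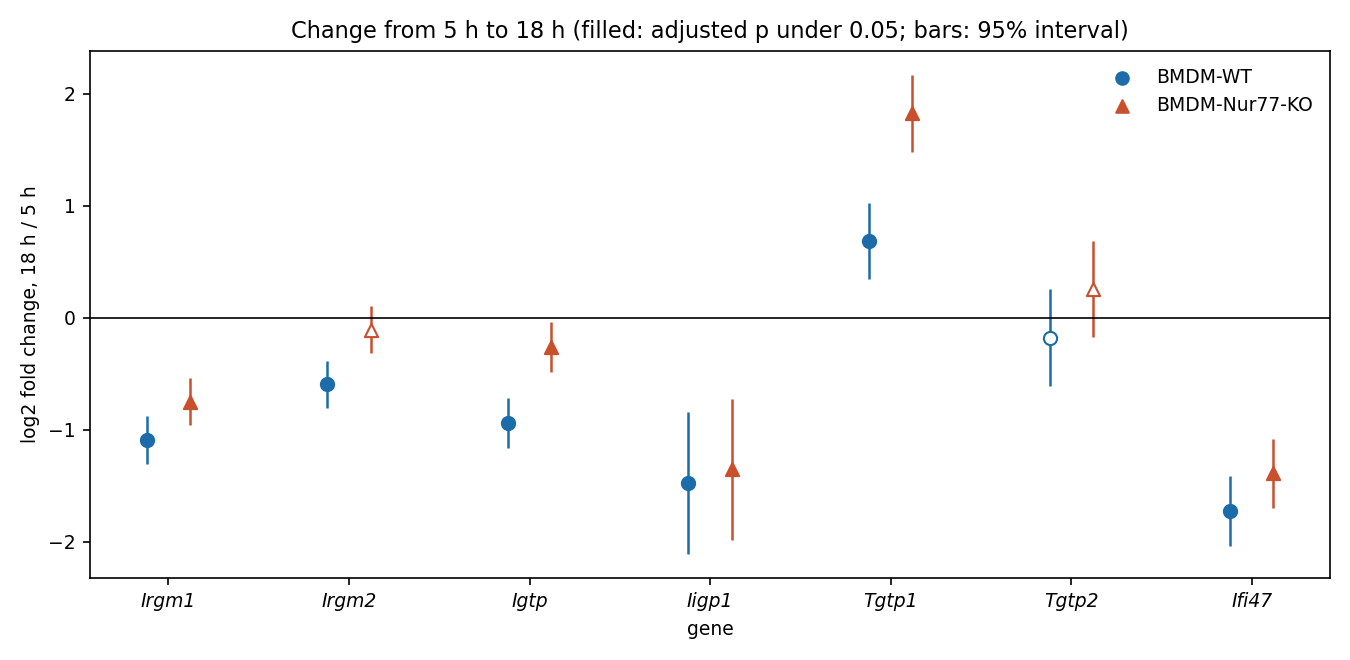
Log2 fold change from 5 h to 18 h of LPS for each IRG gene in BMDM-WT (circles) and BMDM-Nur77-KO (triangles), with bars for the 95% interval and filled symbols for a BH-adjusted p under 0.05 (edgeR). The BMDM-Nur77-KO value is above the BMDM-WT value for all 7 genes, by 0.13 (Iigp1) to 1.14 (Tgtp1), and the difference passed its own test for Irgm2, Igtp and Tgtp1.

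The change from 5 h to 18 h differed between genotypes for 3 of 7 members, all higher in BMDM-Nur77-KO, where 7.52% of all genes were called higher. These were Tgtp1 at 1.14 ± 0.24, Igtp at 0.68 ± 0.16 and Irgm2 at 0.49 ± 0.15 on the log2 scale (edgeR quasi-likelihood, BH-adjusted p = 0.0014, 0.0035 and 0.030). For Irgm2, 5 of 16 fits without 1 library missed the threshold, and for Tgtp1 and Tgtp2 summed the difference was 0.59 (edgeR quasi-likelihood, BH-adjusted p = 0.26). The values of the other members were 0.13 ± 0.45 for Iigp1, 0.34 ± 0.15 for Irgm1, 0.43 ± 0.31 for Tgtp2 and 0.34 ± 0.22 for Ifi47, none of them called. In an edgeR fit of the compared libraries alone, Irgm1 (0.35, BH-adjusted p = 0.023) and Tgtp2 (0.44, BH-adjusted p = 0.023) passed.

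Estimates of all 7 members had the opposite sign at 18 h to that at 0 h, but only the 3 regulators were called at both times. At 18 h, 4 of 7 members were called higher in BMDM-Nur77-KO and 0 lower, where 11.7% of all genes were called higher, and the median log2 fold change of the 7 was 0.42 beside -0.01 over all genes. The 3 regulators moved by nearly the same step. Irgm1 measured 1008, 1075, 1071 and 993 CPM in BMDM-WT and 1417, 1409, 1269 and 1430 CPM in BMDM-Nur77-KO, Irgm2 504, 560, 553 and 507 CPM against 741, 723, 669 and 692 CPM, and Igtp 402, 439, 409 and 407 CPM against 592, 587, 530 and 508 CPM. None of these groups overlapped. The log2 fold changes were 0.41 ± 0.11, 0.41 ± 0.11 and 0.42 ± 0.11, with BH-adjusted p of 0.0051, 0.0054 and 0.0066 by edgeR's quasi-likelihood test, and each corresponds to a level about 1.33-fold higher.

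Among the effectors the spread was wider. Tgtp1 was 2.05-fold higher, with a log2 fold change of 1.04 ± 0.17 (edgeR quasi-likelihood, BH-adjusted p = 3.0e-05). Tgtp2 measured 595, 667, 653 and 559 CPM against 875, 863, 758 and 907 CPM, without overlap, and its log2 fold change of 0.46 ± 0.22 missed the threshold (edgeR quasi-likelihood, BH-adjusted p = 0.14). It passed in an edgeR fit of the compared libraries alone (0.45, BH-adjusted p = 0.0067). Summed, the twins gave 0.60 (edgeR quasi-likelihood, BH-adjusted p = 0.058). Iigp1 measured 620, 696, 952 and 616 CPM against 1148, 1069, 1267 and 1762 CPM. Its log2 fold change of 0.86 ± 0.32 just missed the threshold (edgeR quasi-likelihood, BH-adjusted p = 0.051), and passed it with DESeq2's size factors in the edgeR fit (BH-adjusted p = 0.048), with edgeR's own gene filter (BH-adjusted p = 0.0496), with no filter (BH-adjusted p = 0.043) and in a fit of the compared libraries alone (BH-adjusted p = 0.0090). With DESeq2 it did not pass (0.88, BH-adjusted p = 0.12). In the 8 edgeR fits that left out 1 library it ran from 0.69 to 1.03 and passed in 2 (without knockout replicate 2 and without wild-type replicate 3), with the highest BH-adjusted p of 0.16 without knockout replicate 4. Ifi47 stood apart, at 405, 409, 444 and 405 CPM against 484, 467, 434 and 329 CPM, with overlap and a log2 fold change of 0.04 ± 0.15 whose 95% interval ran from -0.26 to 0.35. Of the 7 members it was the one whose groups overlapped at this time, again without a share over all tested genes to set beside it.

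Counted from 0 h, the rise by 18 h was called larger in the knockout for 6 of 7 members, where 5.36% of all genes were called higher. The differences on the log2 scale were 0.90 ± 0.15 for Irgm1, 1.09 ± 0.16 for Irgm2, 1.17 ± 0.17 for Igtp, 3.11 ± 0.52 for Iigp1, 2.36 ± 0.62 for Tgtp1 and 1.98 ± 0.36 for Tgtp2 (edgeR quasi-likelihood, BH-adjusted p from 1.6e-05 to 0.011). All 6 kept the call in each fit that left out 1 library. Ifi47 gave 0.66 ± 0.23 and missed the threshold (edgeR quasi-likelihood, BH-adjusted p = 0.064), and passed it with DESeq2 (BH-adjusted p = 0.043). These differences rest on the lower 0 h level as well as on the higher 18 h level of BMDM-Nur77-KO, and they share the 0 h libraries with the comparison at 0 h. Macrophage markers, summed, were lower in BMDM-Nur77-KO at 18 h as given above, in the opposite direction to the members, and their part in the result was not tested.

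The median of the interferon genes at 18 h was again on the same side as that of the members, though not every gene was. Of the 16 genes of interferon signalling, 8 were called higher in BMDM-Nur77-KO, where 11.7% of all genes were, and 2 lower. Their median log2 fold change was 0.33 beside -0.01 over all genes. The gene of the ligand interferon-beta, Ifnb1, measured 2.14 ± 0.217 CPM in BMDM-WT and 5.43 ± 0.460 CPM in BMDM-Nur77-KO, higher by 1.33 ± 0.18 on the log2 scale. Socs1, a feedback inhibitor of JAK kinases, followed at 0.95 ± 0.31 and the kinase gene Jak2 at 0.85 ± 0.13. Irf1 was higher by 0.72 ± 0.09 and Irf8, a factor of the myeloid lineage, by 0.49 ± 0.07. Of the other genes called lower at 0 h, Stat2 was called higher at 0.22 ± 0.08. Irf7 at 0.27 ± 0.12 and Irf9 at 0.03 ± 0.07 were not called (edgeR quasi-likelihood, BH-adjusted p = 0.10 and 0.82). The 2 that were lower were receptor genes, Ifngr1 of the interferon-gamma receptor at -0.72 ± 0.09 and Ifnar1 of the type I receptor at -0.32 ± 0.05. The share of all genes called lower at 18 h is not given here. Ifng measured 0.607 to 1.42 CPM in BMDM-WT and 0.981 to 2.30 CPM in BMDM-Nur77-KO, with overlap (edgeR quasi-likelihood, BH-adjusted p = 0.16). At 5 h, 2 genes of this list were higher (Irf8 at 0.34 ± 0.07 and Ifngr1 at 0.30 ± 0.09), where 13.7% of all genes were. Another 3 were lower (Tyk2 at -0.56 ± 0.16, Irf7 at -0.53 ± 0.12 and Usp18 at -0.49 ± 0.12), where 10.7% were.

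The wider family and the GBPs also ended higher in BMDM-Nur77-KO. Of 9 tested IRG relatives, 6 were called higher at 18 h, where 11.7% of all genes were, and 0 lower. They were led by Gm4841 at 1.68 ± 0.28, F830016B08Rik at 1.47 ± 0.28 and Gm12185 at 0.93 ± 0.14, and the median log2 fold change of the 9 was 0.38. At 5 h 4 of the 9 were already called higher, where 13.7% of all genes were, and 1 lower, where 10.7% were. All 11 GBPs were called higher at 18 h, with a median of 0.96, led by Gbp2b at 2.62 ± 0.26, Gbp10 at 1.59 ± 0.22 and Gbp4 at 1.39 ± 0.32. Without BMDM-Nur77-KO 18 h replicate 4, 8 of the 11 GBPs and 5 of the 9 relatives were called. Of the 13 genes for vacuole loading and ubiquitin, 2 were called higher at 18 h, where 11.7% of all genes were. They were Trim21, a ubiquitin ligase that is itself interferon-inducible, at 0.62 ± 0.09 and Traf6 at 0.23 ± 0.06, and the median of the 13 was 0.11.

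Across the 32 libraries the 7 members moved together, with Pearson r of log2 CPM between 0.927 and 0.998 for the 21 pairs and a median of 0.984, over libraries that share the same 4 LPS times. With the mean of each group taken out, r was 0.35 to 0.94 with a median of 0.70. These values include BMDM-Nur77-KO 1 h replicate 3, the highest of its group for all 7 members, and its part in them was not tested. The 5 genes outside the list whose log2 CPM followed the mean z-score of the members most closely were Cmpk2 (r = 0.998), Apobec3 (r = 0.996), Slfn8 (r = 0.996), Rtp4 (r = 0.995) and Parp12 (r = 0.995), over the same 32 libraries. Among the members themselves, Igtp lay closest to that mean (r = 0.999) and Tgtp1 (r = 0.977) and Ifi47 (r = 0.983) farthest from it.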

How the data were processed

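RNA was measured in 32 libraries of BMDMs, 4 in each of 8 groups of genotype and time with LPS, grouped by their sample titles. According to the methods, libraries were strand-specific, paired reads of 150 bases were aligned by the authors to mm10 with HISAT2 2.1.0, alignments of low mapping quality were removed, and tags were summed per RefSeq transcript with HOMER. Whether this counting used the strand is not given in the sources used here. CASAVA 1.8.2 is also named in the submitters' processing notes. The values the authors deposited are expected counts in steps of 0.5, not normalized, and 28.6% of them are not whole. They were rounded for testing.

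Of 42361 transcripts, 42198 were named from RefSeq and 70 from GENCODE, and 93 without a name (0.233% to 1.37% of counts) were left out. The transcript with the highest mean count stood for each of 25067 genes. The 11171 genes with over 1 RPKM in the mean of at least 1 group were tested with edgeR 4.0.16 in R 4.3.3 (TMM scaling, 1 model of 8 groups, quasi-likelihood test, Benjamini-Hochberg adjustment over all 11171 genes), with no replicate block, and a gene was called at an adjusted p under 0.05. Differences between genotypes in a change with time were tested as interaction terms of that model. Each SE and interval uses 1 spread per gene estimated over all 32 libraries, so a group with a wide spread also widens those of the other groups. CPM and RPKM values are relative to the library total multiplied by the TMM factor, and RPKM used the length of the kept transcript. The fit was tested on simulated data. Library totals of 8742362 to 15780926 limit only the lowest values, such as Tgtp1 at 0 h, with 1 to 14 counts. No libraries were duplicates of each other by a chi-square comparison of counts. All 16 comparisons were repeated with DESeq2 1.42.0, with its size factors, with other filters, with a replicate block, with the compared libraries alone, with a limit on the fold change, with every transcript tested, with Tgtp1 and Tgtp2 summed and without each library in turn.

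The members and gene lists were chosen with earlier results of these data known. Named were all 7 members, Nr4a1, Ifnb1, Ifng, Irf1 and Irf8, up to 3 called genes per list and comparison by largest absolute log2 fold change, and the 5 genes most like the members. Other list genes named, among them Stat2, Irf9 and the genes set beside 1 library at 1 h, were chosen after their values were seen. Of the interferon list, 1 gene is not reported here and was left out of its counts. Promoter sequences came from RefSeq (GRCm38.p6).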

Additional observations from a re-analysis of the deposited data

Results flagged for a closer look

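In 8 of 56 groups of 4 libraries, 1 library of a member lay far from the other 3 by Dixon's test at the 95% level, which flags about 1 in 20 groups by chance. In BMDM-Nur77-KO after 1 h these were Igtp at 24.6 CPM, Iigp1 at 33.2 CPM and Tgtp1 at 2.40 CPM, all in replicate 3. The others were Irgm1 at 2166 CPM (5 h) and 1269 CPM (18 h) in BMDM-Nur77-KO, Igtp at 19.8 CPM in BMDM-WT at 1 h, Ifi47 at 27.8 CPM in BMDM-Nur77-KO at 0 h and Ifi47 at 444 CPM in BMDM-WT at 18 h.

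The change with LPS differed between the genotypes by the interaction term of the edgeR model in 13 cases, all with the larger value in BMDM-Nur77-KO. From 0 h to 5 h the differences on the log2 scale were 0.56 for Irgm1, 0.60 for Irgm2, 2.99 for Iigp1 and 1.55 for Tgtp2. From 0 h to 18 h they were 0.90 for Irgm1, 1.09 for Irgm2, 1.17 for Igtp, 3.11 for Iigp1, 2.36 for Tgtp1 and 1.98 for Tgtp2. From 5 h to 18 h they were 0.49 for Irgm2, 0.68 for Igtp and 1.14 for Tgtp1.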

How the results depend on the processing

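Counts of called members kept within 1.5 times of their value with DESeq2, with its size factors, with both other filters, with every transcript tested and with the replicate block. The replicate numbers were not taken to pair the samples, since same-numbered libraries did not deviate together across all groups. This check cannot exclude a pairing, and the sources used here do not say what the numbers stand for. With the replicate block 6 members were lower at 0 h, as without it, and Iigp1 at 18 h passed the threshold (0.90, edgeR, BH-adjusted p = 0.048). A limit on the log2 fold change left 1 member higher in BMDM-Nur77-KO at 18 h, 0 lower in BMDM-WT at 1 h, 2 higher in BMDM-Nur77-KO at 1 h, and, from 5 h to 18 h, 0 higher and 3 lower in BMDM-WT and 2 lower in BMDM-Nur77-KO. Fitting only the compared libraries gave 2 members higher in BMDM-Nur77-KO at 1 h, 2 with a different change from 0 h to 5 h, 2 higher in BMDM-Nur77-KO from 5 h to 18 h and 5 with a different change over that time. With Tgtp1 and Tgtp2 summed, 0 members were higher in BMDM-WT from 5 h to 18 h, and the pair changed sign against Tgtp1 alone there (-0.036), in BMDM-WT at 1 h (-0.022) and between genotypes at 5 h (0.010). The other changes of sign were all in BMDM-WT at 1 h, where values lay near 0. Irgm1 gave 0.0181 with DESeq2 and 0.0178 with its size factors, Ifi47 0.0012 and 0.0019, and Igtp 0.042 and 0.041, 0.0040 and 0.0049 with the other filters, 0.0063 with the block and 0.024 with the compared libraries alone. Tgtp1 at 0 h passed with DESeq2 (BH-adjusted p = 0.038). The causes were not tested.

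Leaving out 1 library gave 0 to 5 members lower in BMDM-Nur77-KO at 1 h, 0 to 1 higher at 5 h, 1 to 6 higher in BMDM-Nur77-KO at 1 h against 0 h, 0 to 1 lower in BMDM-WT at 1 h and 2 to 5 with a different change from 0 h to 5 h. The lowest and highest log2 values of members whose sign changed were, between genotypes, -0.31 and 0.10 for Ifi47, -1.38 and 0.36 for Tgtp1 and -0.86 and 0.057 for Tgtp2 at 1 h, -0.012 and 0.060 for Tgtp2 at 5 h and -0.019 and 0.15 for Ifi47 at 18 h. In BMDM-WT at 1 h they were -0.14 and 0.069 for Ifi47, -0.10 and 0.12 for Igtp, -0.11 and 0.033 for Irgm1 and -0.16 and 0.072 for Tgtp2, and in BMDM-Nur77-KO -0.049 and 0.23 for Irgm2. The difference between genotypes ran from -0.051 to 1.85 for Tgtp1 from 0 h to 1 h and from -0.050 to 0.34 for Iigp1 from 5 h to 18 h. As alternatives chosen after the data were seen, the list counts were repeated without a library that stood apart. Without BMDM-Nur77-KO 1 h replicate 3, 1 IRG relative and 3 GBPs were lower at 1 h, where 2.40% of all genes were. Without BMDM-Nur77-KO 5 h replicate 1, 0 GBPs and 2 vacuole genes were higher and 0 vacuole genes lower at 5 h, and without BMDM-Nur77-KO 18 h replicate 4, 2 IRG relatives had a larger change from 0 h to 18 h in BMDM-Nur77-KO.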
